A study of Mus musculus with 12 samples.

Results

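The 47 genes described here make the machinery that copies DNA in S phase and divides the cell in mitosis, and they were followed through a first and a repeated exposure of mouse macrophages to lipopolysaccharide (LPS), the cell wall component of Gram-negative bacteria. They were taken by gene symbol or alias, and each gene was represented by its brightest probe set with 1 symbol. Of the 47 genes, 46 were measured among 18193 genes in all: 26 of DNA replication and the G1/S transition, and 20 of the 21 of mitosis. Ccnb1, the gene of cyclin B1, was not analysed here.

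The cells were bone marrow cells of C57Bl/6 mice differentiated in macrophage colony-stimulating factor (M-CSF), and all groups shared this strain and this culture. The untreated group received LPS at neither step, and the LPS once group received 100 ng/ml only at the last step. The pretreated group received 100 ng/ml LPS for 18 h, fresh medium and 2 h of rest, and then none, whereas the restimulated group received 100 ng/ml again after that rest. The 2 h of rest before the last step was part of the scheme in all groups. The labels name 3 biological replicates per group by the letters A, B and C, and each was hybridised to its own Affymetrix array, 12 in all. How long the final LPS step lasted was not given in the sources used here.

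M-CSF is both the survival factor and the mitogen of bone marrow macrophages, and cultures of these cells contain dividing cells until an activating signal such as LPS halts them in G1. Before S phase, the origin recognition complex, Cdc6 and Cdt1 load the MCM helicase onto origins, a step called licensing, and geminin binds Cdt1 to keep a cell from licensing the same origin again. E2F factors drive the genes of licensing and DNA synthesis at the G1/S boundary, whereas the genes of mitosis peak later, in G2 and M, largely through the DREAM and MuvB complexes, which bind promoter elements called CHR. All levels below are log2(intensity + 16), and a change is a difference on that scale. A gene was called, and is said to have risen or fallen, at an adjusted p below 0.05 in limma and a change of at least 2-fold. In bulk RNA, fewer cycling cells and less RNA per cycling cell cannot be told apart.

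On 11 of the 12 arrays the mean intensity was 310 to 317, and on restimulated C it was 246.7, so results of the restimulated group are also given without that array where a call changed or a value moved by over 1.5 times. Macrophage markers such as Csf1r, the M-CSF receptor, which read 13.22 to 13.59, were bright on every array, and the 8 summed to intensities of 55500 to 65200; of these 8, Mertk fell after LPS once (-3.54) and Itgam was higher in restimulated than in LPS once cells (1.28). The 8 markers of granulocyte and monocyte progenitors summed to 162 to 233 over the 12 arrays. Some stromal cell markers differed between the replicates. The 6 stromal markers summed to 1110 to 3860 on the A and B arrays, mostly from 2 collagen genes. On the C arrays they summed to 206 to 802. The collagen gene Col1a1 read 9.03 to 10.97 on the A and B arrays and 5.75 to 5.86 on the C arrays, and Col3a1 read 8.67 to 10.43 and 5.58 to 5.81. The endothelial markers Pecam1 and Cdh5 did not follow this order, with Pecam1 at 6.19 on untreated C and 5.67 on untreated B. Pdgfrb rose after LPS once (2.44, adjusted p = 0.0455 in limma) and read 9.24 on LPS once C against 8.42 on LPS once A. In the other groups Pdgfrb was lowest on the C array, at 4.93 in untreated, 5.24 in pretreated and 5.81 in restimulated cells. The stromal marker Dcn was lowest on the C array in every group. The 7 neutrophil markers summed to between 726 and 7660, and the part of these cells in the results was not tested. Arrays of the same letter deviated together, as described with the processing, so calls that appeared only in the fit with the letter as a block are given beside the others.

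After LPS once, 6 of the 10 licensing genes, 2 of the 6 fork genes, Rrm1 and Ccnd1 fell, with Gmnn and Cdt1 the furthest, while 17 of the 20 mitosis genes were not called. Of the 26 replication and G1/S genes, 10 fell and 1 rose, and of the 20 mitosis genes 2 fell and 1 rose, where 13% of all genes were called, 9.1% lower and 3.9% higher. The median change was -0.87 over the replication genes, -0.36 over the mitosis genes and 0.04 over all genes tested. When each array was scaled to a common 75th percentile, these medians became -0.59, -0.11 and 0.21. That scaling also moved the share of risen genes among all called genes from 30% to 51.2%. Within each replicate letter, 22 of 26 replication genes and 14 of 20 mitosis genes were lower after LPS once in A, B and C alike, against 32.8% of all genes. The LPS once arrays lay wholly below the untreated arrays for 24 of the 46 genes and wholly above for 5, against 27% and 29.6% of all genes. With the replicate letter as a block the same numbers of genes were called, 12 lower and 2 higher of the 46, where 9.25% and 4.18% of all genes were called.

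**Figure D1:**
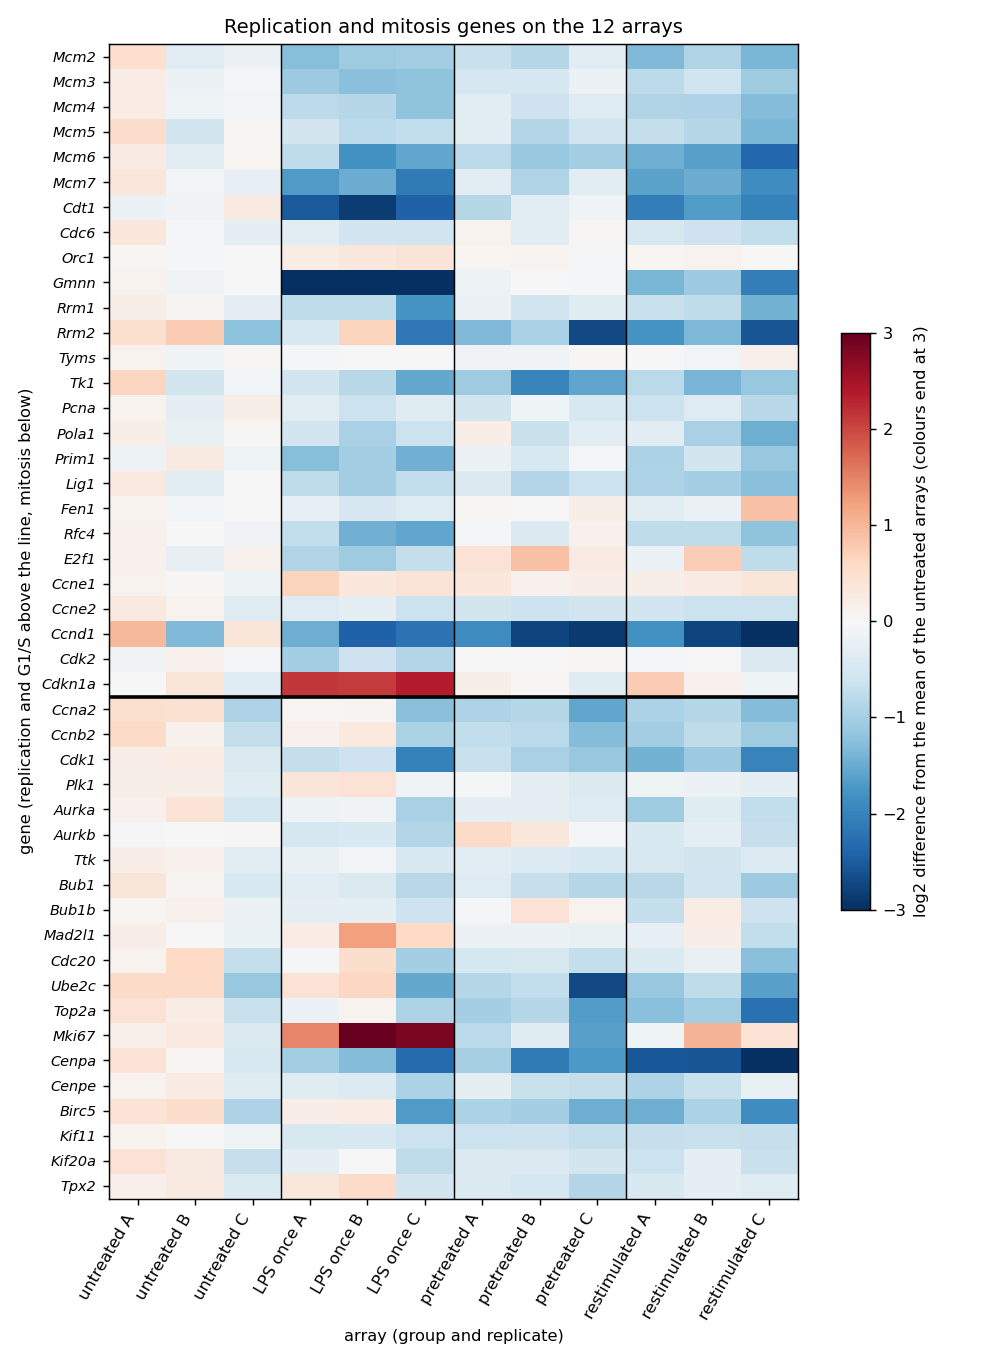
Log2 difference of each of the 46 genes on each of the 12 arrays from the mean of the 3 untreated arrays, with genes in rows by role and arrays in columns by group; the colour scale ends at 3 in either direction. The replication genes are mostly blue in the LPS once group, with Gmnn and Cdt1 darkest, while Cdkn1a and Mki67 are red there, and the C arrays stand out as lower in the mitosis genes.

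The changes of largest size after LPS once, among the 46 genes, were those of the licensing genes Gmnn and Cdt1. Gmnn, which encodes the licensing inhibitor geminin, read 9.61, 9.40 and 9.52 on the untreated arrays A, B and C, and 6.50, 6.10 and 5.64 after LPS once. It read 9.35, 9.52 and 9.45 on the pretreated arrays, and 8.14, 8.43 and 7.43 on the restimulated arrays. The untreated and pretreated arrays thus lay within a narrow band, all LPS once arrays lay far below it, and all restimulated arrays lay between. The fall after LPS once was -3.43 ± 0.26 (SE), 10.8-fold, with an adjusted p of 1.86e-05 in limma, and it was called under all 23 alternatives tried. Gmnn has 1 probe set on this array, so no other probe set bears on it.

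Cdt1, the licensing factor that geminin restrains, followed the same order of groups. It read 9.94, 10.02 and 10.39 on the untreated arrays, 7.59, 7.26 and 7.68 after LPS once, 9.25, 9.81 and 10.01 on the pretreated arrays, and 8.04, 8.43 and 8.10 on the restimulated arrays. No LPS once array overlapped any other group, and the fall was -2.61 ± 0.21 (SE), 6.11-fold, with an adjusted p of 2.62e-05 in limma. Another Cdt1 probe set gave -2.75.

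The MCM genes encode the subunits of the ring-shaped helicase that is loaded at origins, and 4 of the 6 fell after LPS once. Mcm7 read 10.11, 9.70 and 9.53 on the untreated arrays, 8.08, 8.28 and 7.67 after LPS once, 9.44, 8.87 and 9.44 on the pretreated arrays, and 8.18, 8.30 and 7.91 on the restimulated arrays. Its change after LPS once was -1.77 ± 0.22 (SE, adjusted p = 0.00025 in limma). The restimulated and LPS once arrays of Mcm7 occupied the same range, below all arrays of the other groups.

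Mcm6 read 10.57, 10 and 10.39 on the untreated arrays, 9.56, 8.5 and 8.77 after LPS once, 9.51, 9.18 and 9.30 on the pretreated arrays, and 8.85, 8.70 and 7.96 on the restimulated arrays, with a first change of -1.37 ± 0.30. Mcm3 read 8.74, 8.34 and 8.5 on the untreated arrays, 7.44, 7.28 and 7.31 after LPS once, 8.02, 8 and 8.35 on the pretreated arrays, and 7.75, 7.93 and 7.46 on the restimulated arrays, a first change of -1.18 ± 0.15. For both genes the LPS once arrays lay below all untreated arrays, with adjusted p-values of 0.00627 and 0.000255 in limma. Mcm6 lost its call with the mean of all probe sets (-0.86) and without the 4 C arrays (adjusted p = 0.0655), and Mcm3 fell under 2-fold with a pseudocount of 64 (-0.99), quantile normalization (-0.93), 75th percentile scaling (-0.89) and the mean of all probe sets (-0.81). Mcm2 read 8.71, 7.85 and 8.03 on the untreated arrays, 6.91, 7.13 and 7.16 after LPS once, 7.54, 7.33 and 7.85 on the pretreated arrays, and 6.87, 7.29 and 6.83 on the restimulated arrays. Its untreated A array was the highest of its group, and without it the change moved from -1.13 (adjusted p = 0.00388 in limma) to -0.87, under 2-fold. The Mcm2 change was also under 2-fold with a pseudocount of 64 (-0.91), quantile normalization (-0.86) and 75th percentile scaling (-0.84). Mcm4 (-0.95, adjusted p = 0.0012 in limma) stayed just under the 2-fold limit, and reached it without untreated B (-1.01) or without LPS once A (-1.04). Mcm5 changed by -0.70 (adjusted p = 0.0701 in limma). Of the other licensing genes, Cdc6, a loader of the helicase, changed by -0.51, and Orc1, a subunit of the origin recognition complex, by 0.32, both from levels near the array median of 5.51 to 5.57.

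The promoters of Mcm6 and Mcm7 are shown because both genes fell and both carry words of the E2F site. The RefSeq promoter table of mouse build GRCm38.p6 held windows from 250 bases before to 50 after the start of 38 of the 46 genes. The stretches lie directly upstream of the start on the minus strand, at chr1:128359706-128359855 for Mcm6 and chr5:138171884-138172083 for Mcm7, and are written 5′ to 3′ in the direction of the gene. Capitals mark E2F words (TTTCCCGC, TTTGGCGC, TTTCGCGC or TTTGCCGC), CHR words (TTTGAA or TTCGAA) and CCAAT boxes (CCAAT), each on either strand. In Mcm6, the 2 upstream E2F words overlap and appear as 1 run of capitals.
Mcm6: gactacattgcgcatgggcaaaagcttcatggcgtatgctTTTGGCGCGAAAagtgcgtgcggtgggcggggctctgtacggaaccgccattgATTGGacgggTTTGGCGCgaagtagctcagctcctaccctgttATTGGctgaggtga
Mcm7: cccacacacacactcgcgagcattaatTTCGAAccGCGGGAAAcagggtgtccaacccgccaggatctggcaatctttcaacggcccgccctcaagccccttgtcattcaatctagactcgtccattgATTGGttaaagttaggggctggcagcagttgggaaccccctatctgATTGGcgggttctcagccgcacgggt
An E2F word was found in the window of 10 of 22 replication and G1/S genes (45.5%) and of 1 of 16 mitosis genes (6.25%), against 2.6% of 27025 genes of the table. The replication genes with such a word had a median change after LPS once of -0.84 and those without it of -0.78. A match of letters is a description of the window and not a binding site.

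Among the genes of nucleotide supply, Rrm1, the large subunit of ribonucleotide reductase, fell after LPS once. It read 8.75, 8.65 and 8.30 on the untreated arrays, 7.81, 7.80 and 6.80 after LPS once, 8.39, 7.99 and 8.21 on the pretreated arrays, and 7.89, 7.81 and 7.15 on the restimulated arrays. The untreated arrays stayed above all LPS once arrays, and the change was -1.09 ± 0.29 (SE, adjusted p = 0.016 in limma). The call was lost without untreated A (adjusted p = 0.0576), without untreated B (adjusted p = 0.0523) and without LPS once C (-0.76). The change fell under 2-fold with a pseudocount of 64 (-0.91), quantile normalization (-0.86) and 75th percentile scaling (-0.8). It also did so with the mean of all probe sets (-0.69) and without the 4 C arrays (-0.89). Tk1, thymidine kinase of the salvage route, changed by -0.98 with an adjusted p of 0.0612 in limma, and without untreated B by -1.26, which was called. Rrm2, the small subunit of the reductase, changed by -0.65 with a standard error of 0.77. Tyms, thymidylate synthase, was below the array median on all 12 arrays and gives no reading here.

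At the replication fork, Prim1 and Rfc4 fell. Prim1, the catalytic subunit of primase, read 7.36, 7.78 and 7.39 on the untreated arrays, 6.23, 6.48 and 6.08 after LPS once, 7.34, 7.04 and 7.46 on the pretreated arrays, and 6.55, 6.95 and 6.38 on the restimulated arrays. Rfc4, part of the loader of the sliding clamp, read 7.40, 7.25 and 7.16 on the untreated arrays, 6.54, 5.84 and 5.72 after LPS once, 7.20, 6.84 and 7.39 on the pretreated arrays, and 6.50, 6.50 and 6.06 on the restimulated arrays. Both genes had LPS once arrays wholly below the untreated ones, with changes of -1.24 ± 0.18 and -1.23 ± 0.22 (SE, adjusted p = 0.000662 and 0.00235 in limma). Both fell under 2-fold with a pseudocount of 64 (-0.88 and -0.82) and with 75th percentile scaling (-0.98 and -0.98). The sliding clamp itself, Pcna, changed by -0.45, DNA ligase Lig1 by -0.85 and the polymerase subunit Pola1 by -0.74. Lig1 reached 2-fold without untreated B (-1). For the flap endonuclease Fen1, the brightest probe set gave -0.39 and another gave -1.71, so its change depended on the probe set.

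In the control of the G1/S transition, Cdkn1a rose and Ccnd1 fell. Cdkn1a encodes p21, an inhibitor of cyclin-dependent kinases, and it read 10.47, 10.82 and 10.07 on the untreated arrays and 12.58, 12.56 and 12.80 after LPS once. It read 10.62, 10.48 and 10.09 on the pretreated arrays, and 11.22, 10.59 and 10.33 on the restimulated arrays. The LPS once arrays stood above all other arrays, and the other 3 groups overlapped one another. The rise was 2.19 ± 0.25 (SE, 4.56-fold, adjusted p = 0.000172 in limma), and another probe set gave 2.74.

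Ccnd1, the gene of cyclin D1, read 10.13, 7.83 and 9.53 on the untreated arrays and 7.70, 6.73 and 6.94 after LPS once. It read 7.27, 6.41 and 6.29 on the pretreated arrays, and 7.34, 6.42 and 5.89 on the restimulated arrays. The untreated arrays were widely spread and all lay above the arrays of the other groups. The change after LPS once was -2.04 ± 0.59 (SE, adjusted p = 0.0237 in limma). This call was lost without untreated A (-1.55, adjusted p = 0.0876), untreated C (-1.86, 0.0784), LPS once B (-1.84, 0.0753) or LPS once C (-1.95, 0.0712). Cdk2, the kinase of S phase entry, changed by -0.84 (adjusted p = 0.0011 in limma), E2f1 by -0.90, Ccne2 by -0.43 and Ccne1 by 0.45, all under 2-fold. Ccne2 was dim, at 4.94 to 5.62 on the untreated and 4.70 to 5.07 on the LPS once arrays. The array median was 5.51 to 5.57.

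**Figure D2:**
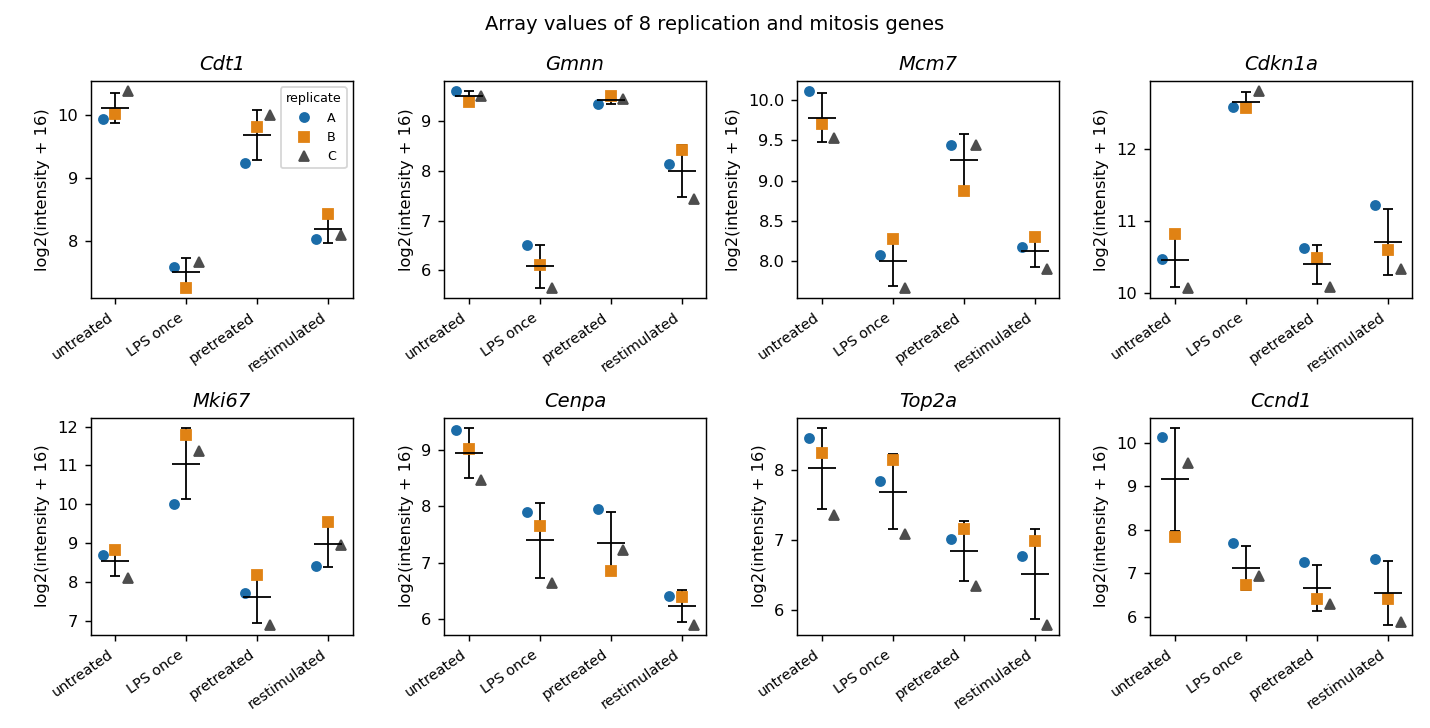
Levels, as log2(intensity + 16), of 8 of the genes on each array, with the group means and SD as bars and the replicate letters marked. The LPS once arrays of Gmnn and Cdt1 lie below and those of Cdkn1a and Mki67 above all other arrays, and in the mitosis genes the C array is often the lowest of its group.

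After LPS once, 16 of the 20 mitosis genes had negative changes, with a median of -0.36 against -0.87 for the replication genes. Of these 20, 15% were called, against 13% of all genes, and a pair of them moved far in opposite directions. Mki67, which encodes the chromosome surface protein Ki-67 and is used as a label of dividing cells, read 8.69, 8.84 and 8.10 on the untreated arrays and 10.01, 11.77 and 11.37 after LPS once. It read 7.73, 8.19 and 6.91 on the pretreated arrays, and 8.41, 9.56 and 8.95 on the restimulated arrays. All LPS once arrays were above all others, and the rise was 2.51 ± 0.49 (SE, 5.69-fold, adjusted p = 0.00359 in limma). It kept its call when any single array was left out, and without all 4 C arrays it was 2.13 with an adjusted p of 0.0662. Mki67 has 1 probe set here, so this rise was not seen by a further probe set.

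Cenpa, the histone H3 variant that marks the centromere, read 9.37, 9.02 and 8.47 on the untreated arrays and 7.90, 7.65 and 6.64 after LPS once. It read 7.96, 6.85 and 7.22 on the pretreated arrays, and 6.40, 6.38 and 5.89 on the restimulated arrays. Its untreated arrays lay above and its restimulated arrays below all others. The first change was -1.56 ± 0.38 (SE, adjusted p = 0.0114 in limma), while the other 2 Cenpa probe sets were dim and gave 0.11 and 0.04.

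Cdk1, the kinase that starts mitosis, read 9.30, 9.31 and 8.67 on the untreated arrays and 8.39, 8.48 and 7.07 after LPS once. It read 8.43, 8.13 and 7.96 on the pretreated arrays, and 7.67, 8 and 7.09 on the restimulated arrays. The untreated arrays were above all others, and LPS once C was far below A and B. The change after LPS once of -1.11 ± 0.38 (SE) had an adjusted p of 0.0466 in limma. The call was lost without any of 7 single arrays: untreated A (adjusted p = 0.13), untreated B (0.133), LPS once C (-0.66, 0.129), pretreated A (0.0588), B (0.063) or C (0.0621), or restimulated A (0.0611). The change was under 2-fold with a pseudocount of 64 (-0.97), quantile normalization (-0.94), 75th percentile scaling (-0.82) and without the 4 C arrays (-0.87). In a fit of only the 2 groups compared, the adjusted p was 0.0872 in limma.

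The other 17 mitosis genes were not called after LPS once, and their changes ran from -0.63 for Aurkb to 0.68 for Mad2l1. The kinase Aurkb (adjusted p = 0.0161 in limma) and the spindle motor Kif11 (-0.52, adjusted p = 0.000493 in limma) had small p-values at under 2-fold. Both had levels near the array median of 5.51 to 5.57. Genes that peak in G2 and mitosis with Cdk1, such as Ccna2 (-0.37), Ccnb2 (-0.17), Top2a (-0.33), Ube2c (-0.17), Birc5 (-0.42) and Cdc20 (-0.18), had adjusted p-values from 0.549 to 0.875 in limma. Within the letters, Ccna2 changed by -0.43, -0.36 and -0.32, Top2a by -0.61, -0.11 and -0.27, and Birc5 by -0.21, -0.28 and -0.76. Among the kinases and checkpoint genes, Plk1 changed by 0.23, Aurka by -0.41, Ttk by -0.25, Bub1 by -0.53 and Bub1b by -0.39. The kinetochore motor Cenpe changed by -0.57, the kinesin Kif20a by -0.35 and the spindle assembly factor Tpx2 by 0.11.

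The promoters of Cdk1, Top2a and Mki67 are shown because they share elements of G2 and mitosis genes while their genes changed differently after LPS once. They lie upstream of the start on the minus strand, at chr10:69352913-69353062, chr11:99024190-99024389 and chr7:135716380-135716579 of GRCm38.p6, from RefSeq. Capitals mark the same words as above.
Cdk1: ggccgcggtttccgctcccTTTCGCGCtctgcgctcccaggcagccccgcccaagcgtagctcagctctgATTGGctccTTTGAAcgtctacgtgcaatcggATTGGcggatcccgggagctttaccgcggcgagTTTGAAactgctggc
Top2a: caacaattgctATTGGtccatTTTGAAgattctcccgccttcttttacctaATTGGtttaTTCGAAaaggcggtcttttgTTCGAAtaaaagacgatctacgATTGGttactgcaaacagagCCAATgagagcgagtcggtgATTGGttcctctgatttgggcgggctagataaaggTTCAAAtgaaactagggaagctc
Mki67: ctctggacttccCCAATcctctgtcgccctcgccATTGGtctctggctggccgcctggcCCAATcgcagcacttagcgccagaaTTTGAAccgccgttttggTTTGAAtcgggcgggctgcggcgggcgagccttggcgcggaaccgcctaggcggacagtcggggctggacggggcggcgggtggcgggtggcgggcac
A CHR word was found in the window of 13 of 16 mitosis genes (81.2%) and of 3 of 22 replication and G1/S genes (13.6%), against 21.7% of all genes of the table. A CCAAT box was found in 14 of 16 (87.5%) and 12 of 22 (54.5%), against 41.1%. Mitosis genes with a CHR word had a median change after LPS once of -0.33 and those without of -0.42.

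The level of the mitosis genes also differed between replicates, in every group. The C array was the lowest of its group for 19 of 20 mitosis genes among the untreated arrays, 18 after LPS once, 18 among the pretreated and 14 among the restimulated arrays. Over all genes the C array was the lowest for 28.5%, 29%, 27.9% and 55%. The median of C minus the mean of A and B over the mitosis genes was -0.68, -0.74, -0.29 and -0.34 in these groups, with Ube2c as far down as -2.06 after LPS once. For the replication genes these medians were -0.05, -0.08, 0.02 and -0.37. The C arrays are also those with low stromal markers, and the part of these cells in the mitosis results was not tested.

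**Figure D3:**
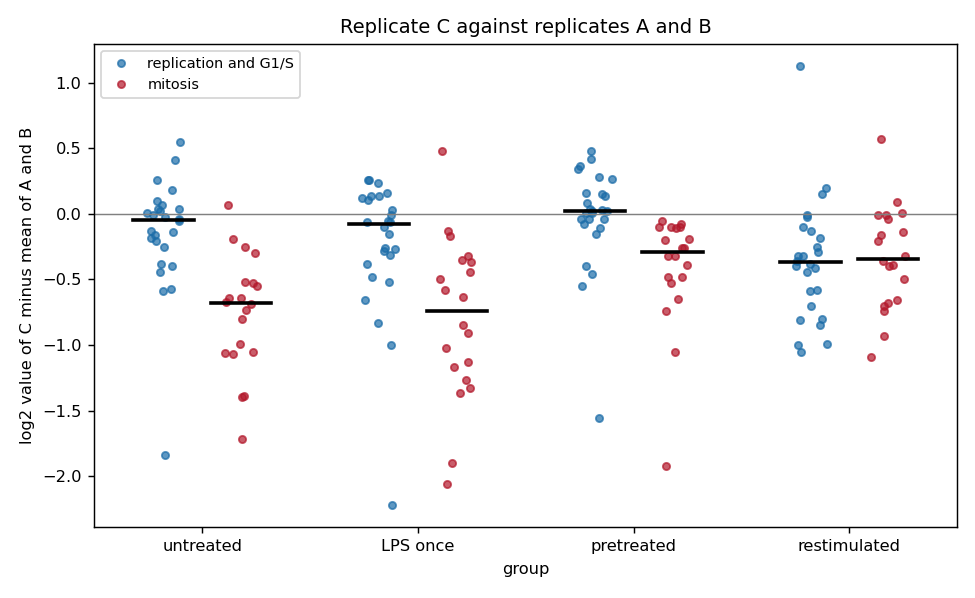
Difference of the C array from the mean of the A and B arrays in each group, on the log2 scale, with 1 point per gene and a black bar at the median. The mitosis genes lie mostly below 0 in all 4 groups (medians -0.68, -0.74, -0.29 and -0.34), while the replication genes centre near 0 except in the restimulated group (-0.37).

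After the 18 h pretreatment and rest, most genes of both kinds had negative changes, 18 of 20 in mitosis and 21 of 26 in replication and G1/S, and none was called without the replicate block. Against untreated cells, limma called 0 of 46 genes, where 0.599% of all genes were called, 0.308% lower and 0.291% higher. At an unadjusted p below 0.05, 19 of the 46 were lower and 0 higher, against 6.23% and 5.8% of all genes. The median change was -0.63 over the mitosis genes, -0.37 over the replication genes and 0.02 over all genes. Kif11 had the smallest adjusted p (0.00294 in limma) at a change of -0.66, or 1.58-fold. It was dim, at 5.66 to 5.90 on the untreated and 5.07 to 5.17 on the pretreated arrays, near the array median of 5.51 to 5.57. With a pseudocount of 1 its change was -1.01 (adjusted p = 0.0021 in limma), which was called. With the replicate letter as a block, 7 of the 46 fell, 3 replication and G1/S genes and 4 mitosis genes, where 1.08% of all genes were called, 0.533% lower and 0.55% higher.

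Of the replication and G1/S genes lower only in the blocked fit, Rrm2 read 8.67, 8.94 and 6.96 on the untreated arrays and 6.86, 7.21 and 5.48 on the pretreated arrays. Within each group the A and B arrays lay well above the C array. The groups overlapped in that pretreated B lay above untreated C, yet the change within each letter was -1.80, -1.73 and -1.48. The change of -1.67 had an adjusted p of 0.443 in limma without the block and 0.0224 with it. Rrm2 read 7.70, 8.85 and 6.05 after LPS once and 6.41, 6.84 and 5.62 on the restimulated arrays.

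Tk1 read 8.45, 7.24 and 7.71 on the untreated arrays, 7.22, 6.97 and 6.26 after LPS once, 6.73, 5.79 and 6.22 on the pretreated arrays, and 6.99, 6.41 and 6.67 on the restimulated arrays. Its pretreated arrays lay below all untreated ones, with a change of -1.56 ± 0.36 (SE), an adjusted p of 0.0963 in limma and 0.0158 with the block. Ccnd1, with the levels given above, changed by -2.51 ± 0.59 (SE), an adjusted p of 0.1 without and 0.0174 with the block. Without untreated B, the lowest of the untreated arrays, Ccnd1 was called without the block too (-3.17, adjusted p = 0.0268 in limma). By contrast, Gmnn was close to its untreated level at -0.07 ± 0.26 (SE), and so was Cdkn1a at -0.06 ± 0.25. Cdt1 changed by -0.43 ± 0.21 (SE), by -0.69, -0.21 and -0.38 within the letters, and was not called.

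Of the mitosis genes, Top2a, the topoisomerase that untangles chromosomes, read 8.46, 8.25 and 7.36 on the untreated arrays and 7.01, 7.16 and 6.35 on the pretreated arrays. It read 7.85, 8.14 and 7.09 after LPS once and 6.77, 6.99 and 5.79 on the restimulated arrays. All pretreated arrays were below all untreated arrays, and the change was -1.18 with a standard error of 0.41 without the block (adjusted p = 0.278 in limma) and of 0.11 with it (adjusted p = 0.00286). Its 2 other probe sets were dim and near 0.

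Ccna2, cyclin A2, read 8.13, 8.10 and 6.72 on the untreated arrays, 7.70, 7.74 and 6.39 after LPS once, 6.72, 6.79 and 6.10 on the pretreated arrays, and 6.69, 6.79 and 6.34 on the restimulated arrays. Ube2c, the ubiquitin-conjugating enzyme of the anaphase-promoting complex, read 8.37, 8.39 and 6.66 on the untreated arrays, 8.24, 8.42 and 6.27 after LPS once, 6.94, 7.08 and 5.09 on the pretreated arrays, and 6.67, 7.04 and 6.17 on the restimulated arrays. In both genes the untreated C array lay at or below the pretreated A and B arrays, and each letter's own pair was lower after pretreatment. Their changes were -1.11 (adjusted p = 0.353 in limma, 0.0434 with the block) and -1.44 (0.495 and 0.0418). Without the 4 C arrays both were called without a block as well, at -1.36 and -1.37 (adjusted p = 0.00677 and 0.0448 in limma). Cenpa changed by -1.61 ± 0.38 (SE, adjusted p = 0.104 in limma, 0.0182 with the block). Birc5, the survivin gene, read 7.96, 8.07 and 6.62 on the untreated and 6.61, 6.53 and 6.09 on the pretreated arrays, a change of -1.14 that was called by neither fit.

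Within single letters, 15 of 20 mitosis genes and 13 of 26 replication genes were lower in pretreated than in untreated cells in A, B and C alike, against 20.6% of all genes. The median change over the mitosis genes was -0.76 in A, -0.78 in B and -0.42 in C. On the C arrays alone, 16 of the 20 mitosis genes were lower, with changes from -1.57 for Ube2c to 0.27 for Bub1b. Of the 7 genes called with the block, Ccna2 changed by -1.41 and -1.31 in A and B and by -0.62 in C, and the other 6 changed in C by -1.01 (Top2a) to -3.24 (Ccnd1). Birc5 changed by -0.53 in C, Cdc20 by 0, Aurka by 0.15 and Kif20a by 0.16.

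**Figure D4:**
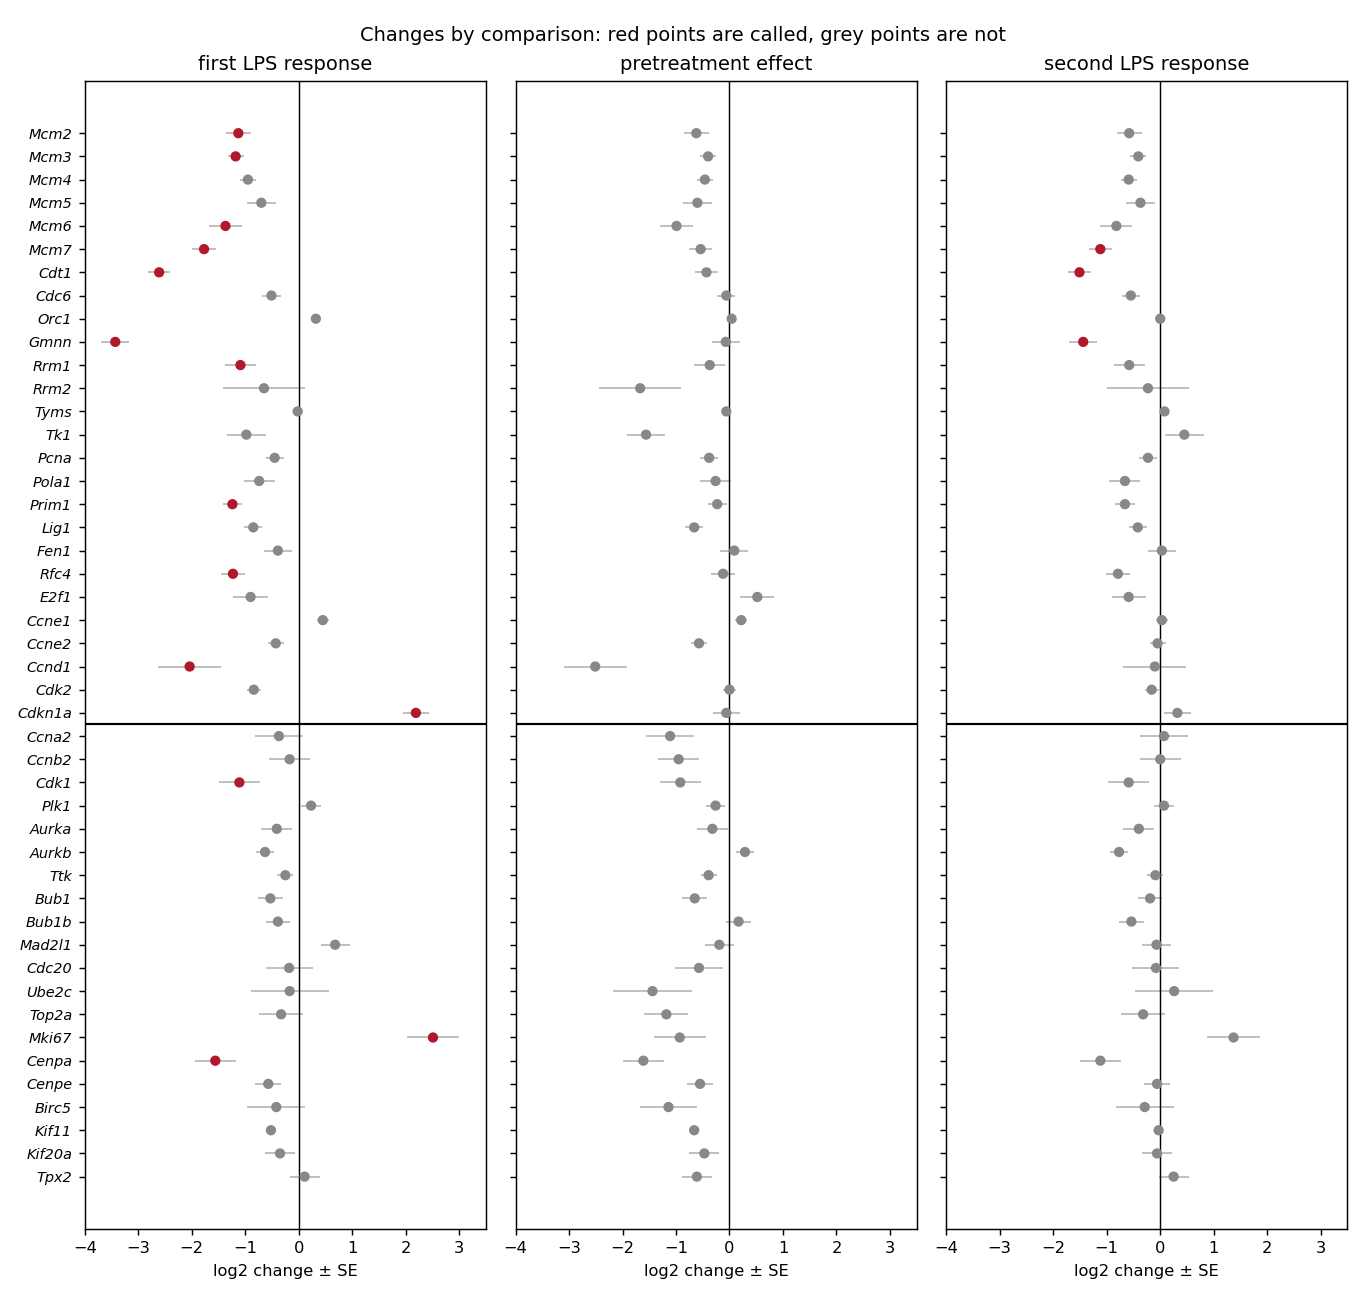
Log2 change with its standard error for each of the 46 genes after LPS once (against untreated), after pretreatment (against untreated) and after restimulation (against pretreated), in limma without the replicate block; red points were called. Red points are 14 of 46 in the first column, 0 in the middle column and 3 in the last. Of all genes, 13%, 0.599% and 1.95% were called in these comparisons.

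When pretreated cells met LPS again, the licensing genes Cdt1, Gmnn and Mcm7 fell. Against pretreated cells, 3 of the 26 replication and G1/S genes fell and none rose, and 0 of 20 mitosis genes were called in limma, with 1 higher and 3 lower at an unadjusted p below 0.05, against 4.52% and 15.3% of all genes. Of all genes 1.95% were called, 1.29% lower and 0.665% higher, and without restimulated C 0.511% in each direction. Cdt1 fell by 1.51 ± 0.21, Gmnn by 1.44 ± 0.26 and Mcm7 by 1.12 ± 0.22 (SE, adjusted p = 0.00804, 0.0181 and 0.0244 in limma). For each of the 3 genes, all restimulated arrays lay below all pretreated arrays. With the replicate block 4 genes fell, where 1.48% of all genes were called lower. The median change was -0.41 over the replication genes and -0.02 over all genes, or -0.18 and 0.14 under the 75th percentile scaling. Over the mitosis genes it was -0.08, which turned to 0.10 under that scaling and was -0.01 without restimulated C.

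None of the 3 was called in a fit of only these groups, where the changes were the same and the adjusted p-values 0.126 to 0.154, or without the 4 C arrays, where the changes were -1.30, -1.15 and -0.92. Mcm7 lost its call without restimulated C (-1.01, adjusted p = 0.0783), restimulated A (-1.14, 0.0584), pretreated A (-1.02, 0.0958) or pretreated C (-1.02, 0.113), and fell under 2-fold with quantile normalization (-0.92), 75th percentile scaling (-0.87) and the mean of all probe sets (-0.81). Gmnn lost its call without pretreated A (-1.48, 0.0632) or pretreated C (-1.43, 0.0816). Among the other helicase genes, Mcm6 changed by -0.82, Mcm4 by -0.59, Mcm2 by -0.58 and Mcm3 by -0.41, and Rfc4 by -0.79, none of them called. Of the mitosis genes, Mki67 changed by 1.37 ± 0.49 (SE, adjusted p = 0.159 in limma), with all restimulated arrays above all pretreated ones. Cenpa changed by -1.12 (adjusted p = 0.137 in limma, 0.0411 with the block), and Aurkb by -0.77 (adjusted p = 0.0346 in limma) at under 2-fold.

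The 2 responses to LPS differed for 2 of the 46 genes when the difference itself was tested, where 2.67% of all genes were called, 1.23% higher and 1.44% lower, or 2.64% and 1.4% without restimulated C. Gmnn fell less at the second exposure: its response was -1.44 against -3.43, a difference of 2.00 ± 0.36 (SE, adjusted p = 0.0196 in limma). Within the letters that difference was 1.90, 2.22 and 1.87. The call was lost without untreated A (1.95, adjusted p = 0.0534) or untreated C (1.99, adjusted p = 0.058).

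Cdkn1a changed by 2.19 at the first and by 0.32 at the second exposure, a difference of -1.87 ± 0.36 (SE, adjusted p = 0.0221 in limma), and by -1.50, -1.62 and -2.49 within the letters. This call was lost without untreated A (-1.88, adjusted p = 0.0578), untreated C (-1.68, 0.0592), LPS once C (-1.79, 0.0545), pretreated B (-1.83, 0.0571) or restimulated B (-1.81, 0.0502). For Cdt1 the difference was 1.10 ± 0.30 (SE) with an adjusted p of 0.0766 in limma. For Tk1 it was 1.43, with an adjusted p of 0.176 in limma and 0.0452 with the block, which called 2 of the 46 higher and 1 lower, against 1.43% and 1.86% of all genes. Over the 26 replication genes the median difference was 0.43, with 22 positive, and over the 20 mitosis genes it was 0.15, with 15 positive, against -0.02 over all genes. Without restimulated C these medians were 0.61, 0.33 and -0.02. No mitosis gene was called, with 1 higher and 0 lower at an unadjusted p below 0.05 in limma, against 8.51% and 8.95% of all genes.

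In the comparison of the end states, restimulated against LPS once, the same 2 genes and Mki67 were called. They are 6.52% of the 46 genes, close to the share of all genes. Of all genes 5.66% were called, 2.48% higher and 3.18% lower, or 4.03% and 2.39% without restimulated C. This comparison shares its arrays with the preceding ones. Gmnn was higher in restimulated cells by 1.92 ± 0.26 and Cdkn1a lower by -1.93 ± 0.25 (SE, adjusted p = 0.0012 and 0.00104 in limma), with groups that did not overlap. E2f1 changed by 0.83 (adjusted p = 0.124 in limma), and without restimulated C, its lowest restimulated array, by 1.18 (adjusted p = 0.016), which was called. Mki67 was lower by -2.08 ± 0.49 (SE, adjusted p = 0.02 in limma), a call lost without LPS once B (-1.72, adjusted p = 0.0703), LPS once C (-1.92, 0.0738) or restimulated A (-1.80, 0.0654).

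Which group had the lowest mean of the mitosis genes depended on restimulated C. With all arrays it was the restimulated group for 13 of 20 mitosis genes (19.9% of all genes), the pretreated group for 5 and the LPS once group for 2, and without restimulated C it was 8 (13.4% of all genes), 10 and 2, some by small margins. Of the 26 replication genes, 11 had the lowest mean in restimulated cells and 10 after LPS once (28.5% of all genes), and 6 and 13 without restimulated C. The untreated group had the highest mean for 14 of 20 mitosis and 19 of 26 replication genes, against 23.9% of all genes. The median change from LPS once to restimulated cells was -0.45 over the mitosis genes, -0.10 over the replication genes and 0 over all genes, and -0.34, -0.01 and -0.01 without restimulated C.

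With the replicate block, 5 mitosis genes fell in that comparison in place of 1, where 6.38% of all genes were called, 3.71% lower. They were Mki67, Top2a (-1.17, adjusted p = 0.000638), Cenpa (-1.17, 0.0131), Ube2c (-1.01, 0.0349) and Birc5 (-1.01, 0.0486). Rrm2 joined them among the replication genes (-1.24, 0.0143). Without LPS once C, 2 of these were called without the block, Cenpa at -1.55 and Birc5 at -1.64 (adjusted p = 0.0274 and 0.0466 in limma). Birc5 read 7.75, 7.78 and 5.86 after LPS once and 6.08, 6.61 and 5.68 on the restimulated arrays, so its A and B pairs were far apart and its C pair was not. Mad2l1, a spindle checkpoint gene, changed by -0.94 (adjusted p = 0.0427 in limma), and reached 2-fold without LPS once A (-1.17) or restimulated B (-1.18). On the C arrays the median change over the mitosis genes was -0.08, against -0.65 in A and -0.68 in B.

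Other genes of the same pathways were counted in the same way. After LPS once, the calls among further replication genes, further mitosis genes, and checkpoint and repair genes were all lower. They made up 23.3%, 5.26% and 19% of these lists. The shares of all genes to set beside these counts are 9.1% lower and 3.9% higher, so the share of further mitosis genes was below that of all genes. Of 43 further replication genes, 10 fell and 0 rose, among them the maintenance methyltransferase Dnmt1 (-2.43), the polymerase epsilon subunit Pole2 (-2.03), the single-strand binding protein Rpa1 (-1.74) and the clamp loader Rfc1 (-1.47). Of 57 further mitosis genes, 3 fell and 0 rose: the phosphatase Cdc25b (-2.13), the cohesin regulator Cdca5 (-1.46) and the kinesin Kif20b (-1.25). Of 31 further genes of G1 and arrest, 2 rose, the cyclin Ccnd2 (1.97) and its partner kinase Cdk6 (1.31), and 6 fell, led by Tfdp2 (-2.44), a partner of E2F factors, and the kinase inhibitor Cdkn2c (-1.78). Of 21 genes of the replication checkpoint and repair, 4 fell, the checkpoint kinases Chek2 (-2.77) and Atm (-1.31), the mismatch repair gene Msh6 (-1.95) and Topbp1 (-1.25). Cdkn1a is also a target of p53, and of 16 other p53 targets 1 rose, the death receptor Fas (3.03), while 5 fell, led by Trp53inp1 (-3.65) and Zmat3 (-2.06).

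In the other comparisons, where 0.599% to 5.66% of all genes were called, these lists had the following calls. After pretreatment, only the p53 target Pmaip1 was called among them, and it fell (-1.71). At the second exposure, Pole2 (-1.19), Dnmt1 (-1.11), Cdc25b (-1.43), Tfdp2 (-1.12), Chek2 (-1.65) and Trp53inp1 (-1.72) fell. The response itself differed for Rpa1 (1.11, adjusted p = 0.0249 in limma) and E2f6 (1.03, adjusted p = 0.00305 in limma), each less negative at the second exposure. Restimulated cells had more Dnmt1 (1.44), Rpa1 (1.23), Chek2 (1.35), Incenp (1.10), Rb1 (1.01) and Trp53inp1 (1.70) than cells given LPS once. They had less Cdk6 (-2.18), Ccng2 (-2.08), Myc (-1.84), E2f8 (-1.07), Plk2 (-1.73) and Aen (-1.06).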

How the data were processed

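Levels came from Affymetrix arrays, 1 per sample, of total RNA isolated with TriFast and labelled by the manufacturer's standard procedure, per the labels' protocols. The authors deposited a linear intensity for each of 45101 probe sets, made with a program, background correction and scaling not given in the sources used here. After 64 controls were set aside, 34945 probe sets had 1 gene symbol in the platform annotation, 932 had several and 9160 are unnamed here. Symbols were matched by Entrez identifier through the RefSeq table of GRCm38.p6 (34741 probe sets).

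Intensities were taken as log2(value + 16) with no further normalization, which understates changes of dim genes. Each of 18193 genes was given by its brightest probe set, and levels of different genes were not compared. limma 3.58.1 in R 4.3.3 fitted 4 group means to all 12 arrays, with 8 residual degrees of freedom, 5 contrasts and Benjamini-Hochberg adjustment over all genes. The fit was tested on simulated data. The precision is limited by 3 arrays per group. All members were named by role. Array values are given for members called in any contrast or past 2-fold at an unadjusted p below 0.05, for Rrm2, Ube2c and Birc5, which were called with the replicate block but not without it on all 12 arrays and were added after their values were seen, and a range or change for the rest. Up to 4 called genes of each comparison list were named per contrast, except where more are listed. The members and lists were chosen with earlier results of these data known.

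The labels number replicates by letter. Deviations from the group means correlated at 0.25 to 0.656 (median 0.361) in 18 same-letter pairs of arrays and at -0.482 to 0.0134 in 36 pairs of different letter, so the letters were taken to pair the arrays. Alternatives were the pseudocount (1 or 64), quantile normalization, scaling to the 75th percentile, a filter at a mean log2 value of 7, other choices of probe set, a mean-dependent prior, the replicate block, a fit of only the 2 groups compared and each array left out. Leaving out the 4 C arrays, and restimulated C in the order of group means, was added after the data were seen.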

Additional observations from a re-analysis of the deposited data

Results flagged for a closer look

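The responses to the first and the second LPS exposure differed by a test of the difference itself for 2 of the 46 genes. They are 4.35% of the 46 genes, where 2.67% of all genes were called. For Gmnn the second response minus the first was 2.00 ± 0.36 on the log2 scale (SE, adjusted p = 0.0196 in limma), and it was positive in 3 of 3 replicate letters. For Cdkn1a it was -1.87 ± 0.36 (SE, adjusted p = 0.0221 in limma), and it was negative in 3 of 3 letters. Adjusted p-values over the alternatives ran from 0.00156 to 0.058 for Gmnn and from 0.00527 to 0.0984 for Cdkn1a.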

How the results depend on the processing

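Counts of called genes moved by over 1.5 times in these settings, and the cause was not tested. After LPS once, 11 replication and G1/S calls became 6 with a pseudocount of 64 and 6 with 75th percentile scaling, and 3 mitosis calls became 1 without the C arrays. For pretreatment, 0 became 1 with the filter and 3 with the replicate block (replication), and 1 with a pseudocount of 1, 1 with the filter, 4 with the block and 2 without the C arrays (mitosis). At the second exposure, 3 replication calls became 1 with the mean of all probe sets, 0 without the C arrays and 0 in the fit of 2 groups, and 0 mitosis calls became 1 with a pseudocount of 1 and 1 with the block. For the difference of responses, 2 became 1 without the C arrays. From LPS once to restimulated, 1 mitosis call became 2 with a pseudocount of 1, 3 with quantile normalization, 3 with 75th percentile scaling, 3 with the filter, 5 with the block, 4 without the C arrays and 0 in the fit of 2 groups. Leaving out single arrays gave 0 to 1 replication calls for pretreatment, 1 to 3 at the second exposure and 0 to 2 for the difference, and 0 to 2 mitosis calls from LPS once to restimulated. The first change of Cenpa reversed to 0.11 without probe sets that can match several transcripts, where only dim ones remained. The block ended no call. Among all called genes, the share that was higher at the second exposure was 34.1%, and 51.3% with quantile normalization, 57.8% with 75th percentile scaling and 50% without restimulated C. After LPS once, 75th percentile scaling moved the share of all genes called lower from 9.1% to 5.67% and higher from 3.9% to 5.95%. The block moved the share of all genes called from 0.599% to 1.08% for pretreatment and from 1.95% to 2.26% at the second exposure. From LPS once to restimulated, it moved that share from 5.66% to 6.38%. For most other settings, the counts above were not set against all genes here.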
